A study of Mus musculus with 21 samples.

Results

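Tamoxifen is used in mouse hearts to switch on Cre recombinase, and the animals described here received the drug without any Cre. Of the 21 left ventricle samples of the study, each on 1 Affymetrix whole-transcript array, 9 came from wild-type mice and were chosen by their labels. In the treated group, 3 wild-type mice were given tamoxifen at 40 mg/kg per day on 4 consecutive days. The other 6 wild-type mice had control injections on 4 days, but the sources used here do not give the content of that injection. All animals were 9 to 13 weeks old, and the tissue was collected 4 days after the final dose. Tamoxifen-treated replicate 1 was male and replicates 2 and 3 were female, whereas controls 1 to 3 were male and controls 4 to 6 female. Their strain is not given either. The other 12 arrays came from mice carrying the αMHC-MerCreMer transgene, in which a promoter active in cardiomyocytes drives a Cre fused to modified oestrogen receptor domains. Those mice had tamoxifen at the same dose or control injections on 1 day or on 4 days, with 3 arrays per group. The labels number the replicates but do not say outright that each was a separate animal, so the p-values measure the spread between these samples.

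Tamoxifen is a selective oestrogen receptor modulator. It binds the oestrogen receptors ESR1 and ESR2, nuclear receptors that act as transcription factors on DNA, and it blocks or mimics oestrogen depending on the tissue. In cells it also binds enzymes of cholesterol synthesis, collects in lysosomes as a cationic amphiphilic compound and is metabolised by cytochrome P450 enzymes. In heart research, wild-type mice given the drug serve to show what tamoxifen does apart from the recombinase it activates.

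The arrays fitted a ventricle. The cardiomyocyte genes Actc1, Myh6 and Pln stood near the top of the scale on all 9 arrays, with Actc1 at 12.98, 12.99 and 12.97 log2 units after tamoxifen and at 12.94 to 12.99 in controls. No B-cell marker of 9 on the array reached a log2 value of 5 on 3 arrays. All 9 wild-type arrays matched their labelled sex. The atrial light chain Myl7 lay at 7.82, 5.59 and 4.68 after tamoxifen and at 4.22 to 7.02 in controls, a wide range in both groups. The median over 10 atrial and conduction genes, relative to the control mean, was 0.138, 0.114 and 0.156 after tamoxifen and -0.247 to 0.146 in controls. Pairwise correlations of whole arrays were 0.9898 to 0.9941 within the tamoxifen group, 0.9824 to 0.995 within the controls and 0.9858 to 0.9934 between the groups. Control 3 stood slightly apart, with correlations of 0.9824 to 0.9862 to the other controls, which correlated among themselves at 0.9884 to 0.995.

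The first question was how far 4 injections moved the wild-type ventricle at all. Levels after tamoxifen were close to those of controls for most genes. Of 11384 genes tested with limma, 0 (0%) passed an adjusted p of 0.05, and the lowest adjusted p was 0.0521. At an unadjusted p under 0.05 there were 688 genes, or 6.04% of those tested. Of these, 417 (3.66%) had a higher mean and 271 (2.38%) a lower mean after tamoxifen. That count was 1057 when control 3 was left out. The excess of higher genes depended on scaling and on 1 array: the split was 354 higher and 347 lower with arrays centred on their median, and 326 higher and 381 lower without treated replicate 1. The 3 tamoxifen arrays lay all above or all below the 6 controls for 389 genes, 3.42% of those tested. The median log2 change over all genes was 0.005, and 95 in 100 genes lay between -0.18 and 0.23.

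The intervals around the changes were also narrow. For 11103 genes, 97.5% of those tested, the 95% confidence interval of the change lay wholly inside a 1.5-fold difference in either direction. For 11337 genes, or 99.6%, it lay inside a 2-fold difference. An estimated change of at least 1.5-fold was seen for 15 genes with a higher mean and 10 with a lower mean. At least 2-fold was reached by 2 genes with a higher mean and 0 with a lower mean. The plot of change against level shows this spread, with a few labelled genes outside the main cloud.

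**Figure D1:**
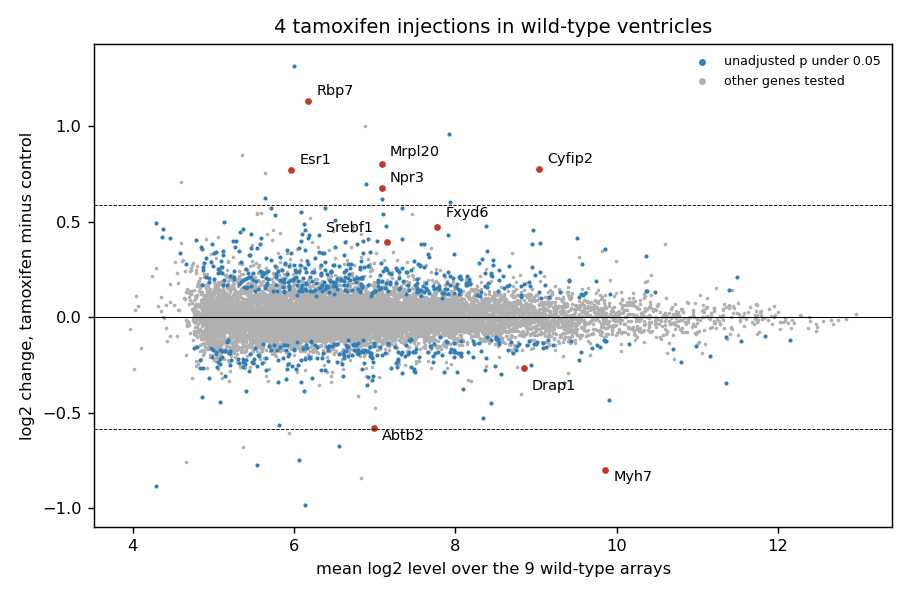
Log2 change after tamoxifen minus control, with sex in the fit, against the mean log2 level over the 9 wild-type arrays; each point is 1 of 11384 genes, blue marks the 688 genes at an unadjusted p under 0.05 and red marks labelled genes. Dashed lines stand at 1.5-fold, and most genes lie well inside them.

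The genes nearest to the threshold were Cyfip2, Fxyd6 and Esr1, all with a higher mean after tamoxifen. Cyfip2 encodes a subunit of the WAVE complex, which controls actin branching. It lay at 9.61, 9.52 and 9.50 log2 units on the 3 tamoxifen arrays, against a lowest value of 8.67, a median of 8.78 and a highest of 8.97 on the 6 control arrays. Every tamoxifen array was above every control, with a gap wider than the whole control range. The change was 0.78 log2 units (SE 0.121, 95% interval 0.52 to 1.03, limma adjusted p = 0.0521).

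Fxyd6 encodes a small membrane protein that modulates the sodium-potassium pump. Its levels were 8.12, 8.12 and 8.04 after tamoxifen, against 7.50, 7.62 and 7.73 as the lowest, median and highest control. Here too the groups did not overlap, and the spread within the tamoxifen group was small. The change was 0.47 (SE 0.0747, limma adjusted p = 0.0521).

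Esr1 encodes oestrogen receptor alpha, the main receptor of the drug itself. It lay at 6.80, 6.50 and 6.12 after tamoxifen, against 5.47, 5.66 and 6.08 as the lowest, median and highest control. The male treated heart was highest, and the lowest treated heart was just above the highest control. The change was 0.77 (SE 0.135, limma adjusted p = 0.113). On the MerCreMer arrays the same probe set read 7.20 to 7.75 in all 4 groups. There the transgene carries oestrogen receptor domains, so that its RNA and the mouse gene's own RNA cannot be told apart.

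These genes did pass an adjusted p of 0.05 in some other fits of the same arrays. Cyfip2 and Fxyd6 were the 2 genes called with array weights, with a trended prior and with a stricter filter on low values, and Cyfip2 was called with the 9 wild-type arrays alone. On all 21 arrays with weights from the variance of each group, limma called 3 genes, Fxyd6, Cyfip2 and Esr1. Without control 5, Esr1 was the 1 gene called.

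The promoters of these 3 genes are shown because the oestrogen receptor, which tamoxifen binds, recognises a DNA element made of a pair of GGTCA half-sites. Each is the stretch of 250 bases before the annotated transcription start, 5′ to 3′ on the gene's strand, from RefSeq on GRCm38.p6. They are from chr11:46312359-46312608 (minus strand) for Cyfip2, chr9:45369935-45370184 (plus strand) for Fxyd6 and chr10:4611739-4611988 (plus strand) for the first of 2 listed Esr1 starts. Capitals mark a half-site, GGTCA or its complement TGACC.
Cyfip2: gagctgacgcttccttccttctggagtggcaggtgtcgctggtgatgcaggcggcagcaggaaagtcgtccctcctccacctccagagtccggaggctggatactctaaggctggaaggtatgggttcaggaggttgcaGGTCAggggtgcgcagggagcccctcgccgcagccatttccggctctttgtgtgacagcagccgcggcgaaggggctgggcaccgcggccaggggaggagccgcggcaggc
Fxyd6: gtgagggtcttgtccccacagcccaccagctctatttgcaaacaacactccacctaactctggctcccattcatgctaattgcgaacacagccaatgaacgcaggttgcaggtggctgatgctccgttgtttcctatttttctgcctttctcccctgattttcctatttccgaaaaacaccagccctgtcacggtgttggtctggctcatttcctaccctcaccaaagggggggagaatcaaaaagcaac
Esr1: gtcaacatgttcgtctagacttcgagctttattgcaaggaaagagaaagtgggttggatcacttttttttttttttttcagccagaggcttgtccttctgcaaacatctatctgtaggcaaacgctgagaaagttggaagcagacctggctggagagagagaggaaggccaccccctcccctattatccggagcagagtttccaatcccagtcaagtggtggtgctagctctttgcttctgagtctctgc
A half-site was found in the Cyfip2 stretch, 111 bases before the start, and in neither of the others. Half-sites are common: 35.2% of 32851 promoter stretches of the same length hold at least 1, on either strand. The full element, GGTCA and TGACC with any 3 bases (NNN) between them, was in 0.064% of them and in 0 of these 3. A match in letters is not evidence of receptor binding.

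Hmcn1 encodes hemicentin-1, a very large extracellular matrix protein. It is covered by 77 probe sets, and all 77 had a higher mean after tamoxifen, with changes from 0.05 to 0.62 and a median of 0.36. The median over the 77 probe sets was 6.26, 6.52 and 6.25 on the tamoxifen arrays, against 5.90 to 6.07 on the 6 controls. All 3 tamoxifen arrays stood above all 6 controls, and 60 of the 77 probe sets separated the groups completely. These probe sets measure RNA of 1 gene and are not independent of each other, so that the 60 repeat 1 comparison of the same arrays. Over all genes tested, 1 probe set each, the groups separated in 3.42%, in either direction.

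With every probe set of a named gene tested on its own, limma called 11 of 12463 probe sets. All 11 had a higher mean after tamoxifen, and 8 of them were Hmcn1 probe sets, with Cyfip2, Fxyd6 and Esr1 as the remainder. The adjustment counted the 75 Hmcn1 probe sets tested as separate entries, and their small p-values lowered the adjusted p of the remainder. Tested per gene, Cyfip2, Fxyd6 and Esr1 had limma adjusted p-values of 0.0521, 0.0521 and 0.113. Averaged over its probe sets, Hmcn1 had a change of 0.35 (SE 0.062, limma adjusted p = 0.0886). The single probe set kept for the gene by its level, at 7.29, 7.62 and 7.47 after tamoxifen against 7.10, 7.17 and 7.33 as lowest, median and highest control, gave a change of 0.24 (limma adjusted p = 0.477). In MerCreMer mice given 4 tamoxifen injections, all 77 probe sets were lower than in their controls, with a median change of -1.03.

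**Figure D2:**
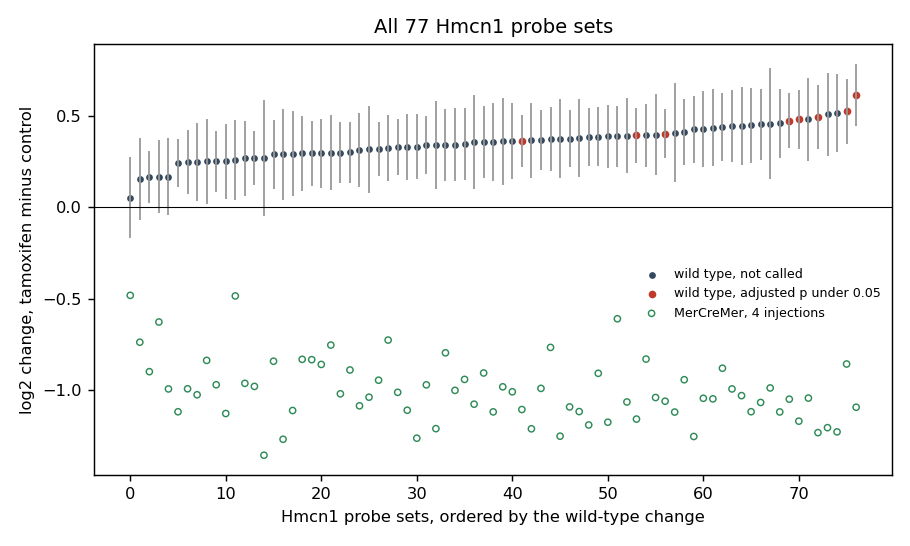
Log2 change, tamoxifen minus control, of each of the 77 Hmcn1 probe sets, ordered by the wild-type change; filled points with 95% intervals are wild-type hearts, red where the adjusted p was under 0.05 (8 probe sets), and open circles are MerCreMer hearts after 4 injections. All wild-type points lie above 0 and all MerCreMer points below it.

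By the rule for named genes, the 12 genes with a higher mean and the 12 with a lower mean that had the smallest p were described, since none was called. In 21 of the 24 the groups did not overlap. Their choice by p fixes that, so the count is a description. Apart from Cyfip2, Fxyd6, Esr1 and Hmcn1, the higher ones were Bicc1, Lyrm7, Ctsk, Dab2, Smoc1, Npr3, Mrpl20 and Srebf1.

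Npr3 encodes the receptor that clears natriuretic peptides from tissue. It lay at 7.56, 7.74 and 7.36 after tamoxifen, against 6.68, 6.79 and 7.15 as the lowest, median and highest control, without overlap. The change was 0.68 (SE 0.162, limma adjusted p = 0.477). Mrpl20, a protein of the mitochondrial ribosome, lay at 7.69, 7.57 and 7.54 after tamoxifen against 6.60, 6.65 and 7.53 in controls. Its separation was small at the edge, because control 1 at 7.53 nearly touched the treated arrays. The change was 0.80 (SE 0.192, limma adjusted p = 0.477).

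Srebf1 encodes SREBP1, the transcription factor that drives fatty acid synthesis. It lay at 7.33, 7.44 and 7.47 after tamoxifen against 6.79, 7.02 and 7.21 in controls, a change of 0.40 (SE 0.0955, limma adjusted p = 0.477). Smoc1, a secreted calcium-binding matrix protein, lay at 5.78, 5.75 and 5.76 after tamoxifen against 5.09, 5.33 and 5.57 in controls. Both genes were higher on all 3 treated arrays than on any control. Ctsk, the collagen-degrading cathepsin K, had a change of 0.38, Dab2, a clathrin adaptor, 0.31, Lyrm7, an assembly factor of respiratory complex III, 0.31, and Bicc1, an RNA-binding protein, 0.27. Ctsk and Lyrm7 had control levels near 5, the value used as the filter for low signals.

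Outside this rule, and chosen after its values were seen, Rbp7 had one of the 2 estimated changes of at least 2-fold. Rbp7 encodes a retinoid-binding protein of small-vessel endothelium. It lay at 7.06, 6.67 and 6.90 after tamoxifen, against 5.32, 5.78 and 6.36 in controls, a change of 1.13 (SE 0.295, limma adjusted p = 0.477). It was called when the 9 wild-type arrays were fitted alone. The other was the unnamed transcript 2210407C18Rik, whose groups overlapped.

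The 12 genes with a lower mean had changes of -0.58 to -0.23. Drap1, a repressor that acts on the basal transcription machinery, lay at 8.69, 8.64 and 8.69 after tamoxifen, against 8.83, 8.93 and 9.06 as the lowest, median and highest control. Its change was -0.26 (SE 0.0518, limma adjusted p = 0.294). Nnt, the mitochondrial transhydrogenase that supplies NADPH, lay at 10.60, 10.70 and 10.65 against 10.73, 10.88 and 10.96, a change of -0.23. Both were below every control on all 3 treated arrays.

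Ddit3 encodes CHOP, a transcription factor induced by endoplasmic reticulum stress. It lay at 5.54, 5.72 and 5.50 after tamoxifen against 5.74, 5.91 and 6.09 in controls, a change of -0.34 (SE 0.0756, limma adjusted p = 0.399). Tnip1, which dampens NF-κB signalling, lay at 6.37, 6.54 and 6.39 against 6.63, 6.66 and 6.78, a change of -0.24. Treated arrays were below all controls for both genes. Abtb2 had the largest change of the 12 lower genes, -0.58. It lay at 6.99 in the treated male and at 6.39 and 6.46 in the treated females, against 6.95 to 7.29 in controls. With 1 treated male, sex cannot be told apart from that single array. Rilpl1, Uqcc3, Aph1b, Akr7a5, H2bc22, Efna1 and Spc24 had changes between -0.31 (the ligand ephrin A1, Efna1) and -0.24.

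**Figure D3:**
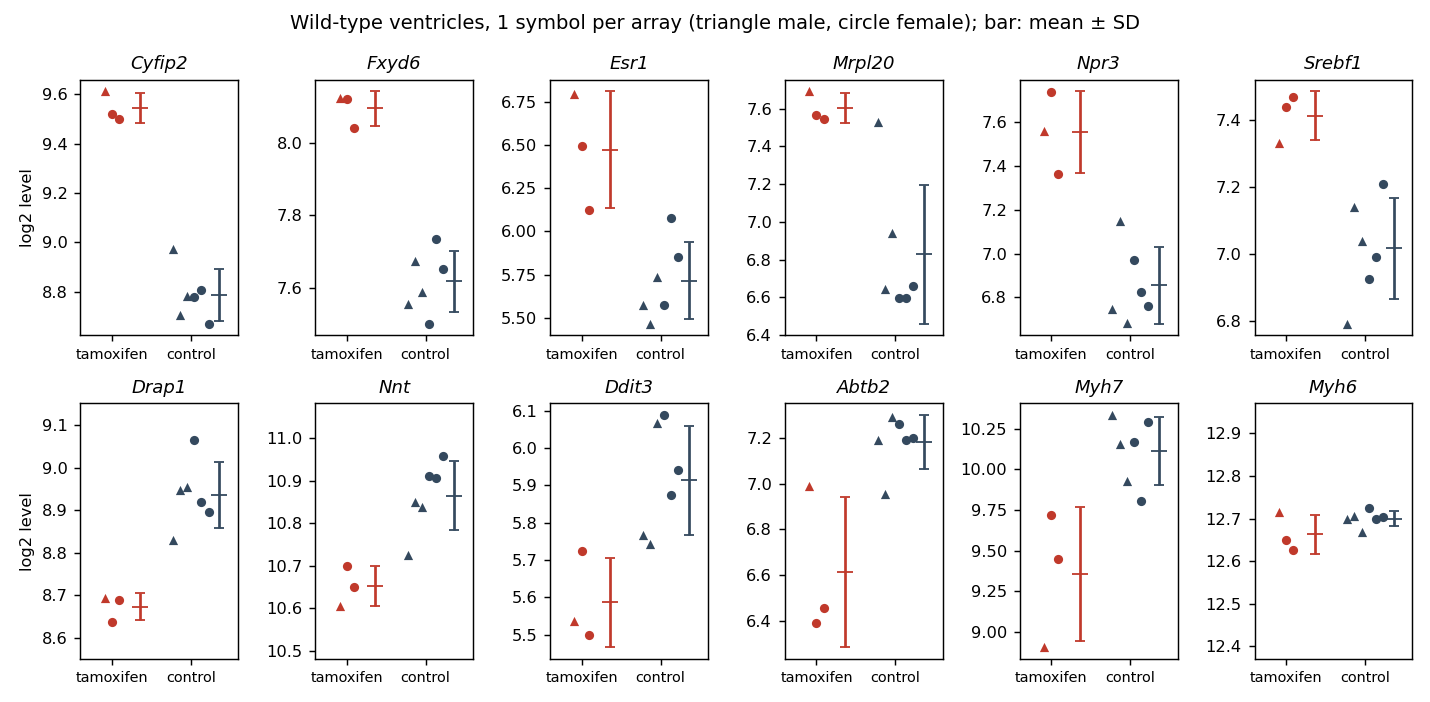
Log2 level of 12 genes on each wild-type array, tamoxifen (red, 3 arrays) left of control (dark, 6 arrays), with triangles for males, circles for females and bars for the mean ± SD. Cyfip2 and Fxyd6 show a clear gap between groups, the 1 treated male lies above the treated females for Abtb2, and Myh6 overlaps.

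The MerCreMer hearts after control injections offered a further level to set beside these genes. Fxyd6 lay at 7.86 to 8.08 on those 6 arrays, where the wild-type treated arrays read 8.04 to 8.12 and the wild-type controls 7.50 to 7.73. Cyfip2 lay at 8.72 on 1 MerCreMer control array and had a median of 9.40 over the 6, against 9.50 to 9.61 in treated and 8.67 to 8.97 in control wild-type hearts. For both genes the treated wild-type arrays therefore stood closer to most MerCreMer controls than to their own controls. Of the 24 genes named by p, the treated wild-type mean was nearer to the MerCreMer control median in 18 and nearer to the wild-type control median in 6. The 18 include Nnt, Hmcn1, Tnip1, Srebf1, Ctsk, Lyrm7 and Aph1b, and the 6 are Esr1, Smoc1, Drap1, Uqcc3, Akr7a5 and Efna1. For Dab2 (wild-type 7.57, MerCreMer 7.57), Abtb2 (7.20 and 7.18) and Ddit3 (5.91 and 5.86) the control medians were close to each other. In MerCreMer hearts, RNA of Esr1 itself and of the transgene cannot be told apart. The same share over all genes was not counted. These genes were chosen for their distance from the wild-type controls, so that the count is a description. As a check of genotype labels, 687 genes differed between MerCreMer and wild-type hearts after 4 control injections, and the treated wild-type arrays lay nearer to the wild-type controls in at least 543 of them on each array. Cyfip2, Lyrm7, Tnip1 and Srebf1 all lie on chromosome 11. Tnip1 lay at 6.37 to 6.54 in treated and 6.63 to 6.78 in control wild-type hearts, and at 6.38 to 6.69 in MerCreMer controls. The labels do not say whether the groups differed in litter, strain or array batch. What part such differences had in these changes was not tested.

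The next groups of genes were those on which tamoxifen is known to act. Among oestrogen receptors and coregulators, 1 of 15 tested genes, Esr1, was at an unadjusted p under 0.05, and the median change was 0.025. Of 24 oestrogen-regulated genes, 3 were higher at that level (3.66% of all genes were) and 0 lower, with a median of -0.006. These were the transcriptional coregulator Cited2 (0.39), the cell-cycle regulator Ccnd1 (0.27) and Igfbp4, which binds insulin-like growth factors (0.22). Cited2 lay at 9.37, 9.10 and 9.45 after tamoxifen against 8.58, 8.97 and 9.15 in controls, so that the groups overlapped in 1 treated array. Leaving out treated replicate 2 or control 1 gave 1 higher gene.

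In cholesterol synthesis, 0 of 20 genes were at an unadjusted p under 0.05 in either direction, with changes from -0.16 to 0.13 and a median of -0.021. Fatty acid synthesis and SREBP1 targets gave 3 of 16 higher (3.66% of all genes were) and 0 lower, with a median of 0.10. Besides Srebf1 these were the desaturase Scd2 (7.16, 7.14 and 7.07 after tamoxifen against 6.43, 6.64 and 7.21 in controls) and Acaca, which makes malonyl-CoA (6.35, 6.62 and 6.86 against 6.09, 6.24 and 6.61). Neither separated the groups. The list's array medians were 0.073, 0.058 and 0.08 after tamoxifen, all inside the control range of -0.144 to 0.095. Leaving out control 3 gave 5 and leaving out treated replicate 3 gave 2 higher genes in this list. Cholesterol efflux genes and the sterol receptor LXR with its targets made a list of 7 tested genes. Of these, 2 were higher at an unadjusted p under 0.05, where 3.66% of all genes were. They were the cholesterol exporter Abca1 (0.48) and the ubiquitin ligase Mylip (0.34). Leaving out treated replicate 3 gave 1 such gene.

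Drug and xenobiotic metabolism held 0 of 27 genes at that level in either direction by limma, with a median of 0.027, and 4 higher genes without control 3. Cyp1b1, a P450 enzyme of steroids and foreign compounds, lay at 5.25, 5.38 and 5.10 after tamoxifen against 4.84, 5.10 and 5.16 in controls. The lysosomal list had 5 of 30 higher, 0 lower and a median of 0.067, where 3.66% of all genes were higher and 2.38% lower. Ctsz, a lysosomal cathepsin, lay at 8.02, 8.24 and 7.96 after tamoxifen against 7.65, 7.85 and 7.94 in controls. Lipa, the acid lipase that frees cholesterol in lysosomes, lay at 7.43, 7.51 and 7.44 against 7.08, 7.22 and 7.33. Ctsz and Lipa were above every control, and Ctsl, Gusb and Tpp1 overlapped. Without 1 array at a time, the count of higher lysosomal genes was 3 (without treated replicates 2 or 3, or without controls 4 or 6) to 8 (without control 3).

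Within the sarcomere list, Myh7 had the largest difference. Myh7, the slow β-myosin heavy chain that adult mouse ventricles express at low level beside Myh6, lay at 8.91, 9.72 and 9.45 after tamoxifen against 9.80, 10.16 and 10.33 as the lowest, median and highest control. The treated arrays were all lower, and the male array was lowest. The change was -0.80 (SE 0.226, limma adjusted p = 0.55). MerCreMer control hearts lay at 8.59 to 9.84 for Myh7. Myh6, the main adult isoform, lay at 12.71, 12.65 and 12.63 after tamoxifen against 12.67 to 12.72 in controls, a change of -0.03. Of 31 sarcomere genes, 1 was higher and 4 were lower at an unadjusted p under 0.05 (3.66% and 2.38% of all genes), with a median of -0.033. Besides Myh7, the lower ones were Myom2, Csrp3 and Tnni3, with changes of -0.20, -0.11 and -0.10. The 4 became 1 without treated replicate 2, and 2 without treated replicate 3 or control 4.

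Calcium handling and ion channels gave 1 of 39 higher, the sodium-calcium exchanger Slc8a1 (9.95, 9.86 and 9.79 after tamoxifen against 9.57 to 9.73 in controls), and 1 lower, Abcc8. Of all genes, 3.66% were higher and 2.38% lower at an unadjusted p under 0.05. The list's median change was -0.015, and Slc8a1 and Abcc8 were not at that level in several of the fits without 1 array. Cacna1c, the pore of the L-type calcium channel, had a change of 0.02 (SE 0.0647), Ryr2, the calcium release channel, 0.00 (SE 0.047), Atp2a2, the calcium pump of the sarcoplasmic reticulum, -0.02 (SE 0.0404) and Pln, its inhibitor phospholamban, -0.01 (SE 0.0416). With these SEs, a change of 1.5-fold, or 0.58 log2 units, lay far outside their intervals.

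Genes of energy metabolism had medians close to 0. In oxidative phosphorylation, 0 of 59 genes were at an unadjusted p under 0.05 in either direction, and all changes lay between -0.10 and 0.10. The tricarboxylic acid cycle gave 0 of 21 and glycolysis 0 of 24, with medians of 0.010 and 0.011. Without treated replicate 1, 2 oxidative phosphorylation genes were lower, and 2 glycolysis genes were higher and 1 lower. Fatty acid uptake and oxidation gave 2 of 37 higher (3.66% of all genes were) and 0 lower, with a median of 0.013. The 2 became 0 without any 1 of the treated replicates or without control 3 or 5, and 1 without control 1 or 6. Pdk4, which blocks glucose oxidation in fasting, ranged widely in both groups, at 10.79, 9.29 and 9.73 after tamoxifen and 8.92 to 10.89 in controls. Its change of 0.34 had an SE of 0.404, which is larger than the change itself.

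Among markers of cardiac stress, Nppa lay at 10.78, 10.32 and 10.68 after tamoxifen and at 9.14 to 11.17 in controls, and Nppb at 8.49, 8.49 and 8.70 against 7.78 to 9.89. Both peptides are released by stretched myocardium, and their groups overlapped fully. Ankrd1, a stretch-responsive nuclear protein of cardiomyocytes, lay at 11.33, 11.05 and 11.02 after tamoxifen against 11.26, 11.49 and 11.63 in controls, a change of -0.35 (limma adjusted p = 0.542). For Hmox1, which breaks down haem in stressed cells, limma gave a change of 0.10 (SE 0.162). Of circadian clock genes, 0 of 20 were at an unadjusted p under 0.05 by limma.

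Cytosolic ribosomal protein genes had a slightly lower mean as a list. The median change was -0.07, 27 of 32 had a lower mean, and 3 of 32 were lower at an unadjusted p under 0.05 (Rps9, Rps19 and Rpl13), against 2.38% of all genes. The list's array medians were -0.028, -0.054 and -0.082 after tamoxifen, all below the control range of -0.025 to 0.056. Rps9 lay at 9.40, 9.27 and 9.44 after tamoxifen against 9.52, 9.61 and 9.73 in controls. Leaving out treated replicate 1 gave 6 lower genes, treated replicate 2 gave 2, and treated replicate 3 gave 1. Controls 4 and 5, each left out, gave 2. With the replicate block, where control 1 alone sets the control level, the list's median change was -0.096.

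The extracellular matrix list, made mainly by cells between the cardiomyocytes, had a higher mean for most of its genes. Of 48 extracellular matrix genes, 17 were higher and 0 lower at an unadjusted p under 0.05, where 3.66% of all genes were higher, and the median change was 0.153 against 0.005 over all genes. Col3a1, a fibrillar collagen, lay at 8.84, 8.89 and 8.36 after tamoxifen against 7.86, 8.18 and 8.54 as the lowest, median and highest control. Col1a1 lay at 9.33, 9.38 and 8.94 against 8.44, 8.76 and 9.25, and Postn, periostin of activated fibroblasts, at 7.67, 7.57 and 6.79 against 6.13, 6.73 and 7.15. In these genes treated replicates 1 and 2 were above all controls, and replicate 3 lay among them. Fn1, fibronectin, had a change of 0.38 and Col5a2 of 0.35. In 0 of the 48 did the groups separate.

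The matrix list's array medians were 0.191, 0.221 and 0.040 after tamoxifen, against -0.148 to 0.114 on the controls, each relative to the control mean. The 17 genes became 2 without treated replicate 1 and 3 without treated replicate 2. Leaving out controls 1, 4 or 6 gave 9, 11 and 8. With all 21 arrays in the fit, none of the 48 was at an unadjusted p under 0.05, and with female arrays only there were 3. The list's median stayed between 0.104 and 0.229 when 1 array was left out.

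Fibroblast markers, of which 8 are also in the matrix list, gave 7 of 17 higher and 0 lower at an unadjusted p under 0.05. Of all genes, 3.66% were higher and 2.38% lower. The list's median change was 0.252. Of these 7, Col3a1, Postn, Mfap5, Col1a1 and Col1a2 belong to both lists, and the matrix protein Dpt and the fibroblast transcription factor Tcf21 are the others. The array medians were 0.192, 0.449 and 0.122 after tamoxifen against -0.238 to 0.175 on controls. The log2 of the summed levels was 12.89 to 13.04 after tamoxifen and 12.63 to 12.93 in controls. Pdgfra, a marker of resting fibroblasts, lay at 8.01, 7.89 and 7.89 against 7.68 to 8.02. The 7 became 0 without treated replicate 1, 1 without treated replicate 2, 3 without control 1, 3 without control 6 and 4 without control 4. In bulk tissue, more fibroblasts and more RNA per fibroblast cannot be told apart.

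Macrophage and monocyte markers gave 6 of 23 higher and 0 lower, with a median of 0.118, where 3.66% of all genes were higher. Cd68, a lysosomal protein of macrophages, lay at 6.68, 6.73 and 6.58 after tamoxifen against 6.35, 6.40 and 6.47 in controls, a change of 0.27 (limma adjusted p = 0.55). Ly86, a surface protein of myeloid cells, lay at 6.08, 6.17 and 6.01 against 5.64, 5.79 and 5.94. Both were above every control, and the mannose receptor Mrc1, Laptm5, Fcer1g and C1qb overlapped. The log2 of the summed levels was 11.16 to 11.38 after tamoxifen and 11.09 to 11.29 in controls. The 6 became 2 without treated replicate 2, 3 without control 1 or 4, and 0 with all 21 arrays in the fit.

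Most blood markers tested also had a higher mean. Of 5 erythroid and platelet genes tested, 4 were higher at an unadjusted p under 0.05, where 3.66% of all genes were. The lowest change was -0.03 and the median was 0.38, and 6 of the 15 genes listed are on the array. Alas2, which starts haem synthesis in red-cell precursors, lay at 7.33, 7.85 and 8.04 after tamoxifen against 6.69, 7.18 and 7.58 in controls, and Bpgm, the red-cell enzyme that makes bisphosphoglycerate, at 6.99, 7.07 and 7.04 against 6.46, 6.66 and 6.81. The 2 treated females exceeded all controls for both genes, and the treated male did so for Bpgm. The log2 of the summed levels was 8.69 to 9.11 after tamoxifen and 8.29 to 8.79 in controls. The 4 became 1 without treated replicate 3. With the replicate block, where control 1 alone sets the control level, the list's median change was 0.165. What part blood left in the tissue had in the macrophage and other differences was not tested.

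Interferon response genes varied among the treated animals. The array medians over 31 genes were -0.120, 0.431 and 0.148 after tamoxifen, against -0.240 to 0.125 in controls. Only the female treated replicates 2 and 3 lay above the controls. The antiviral factor Irf7 lay at 6.11, 6.76 and 6.26 after tamoxifen against 5.66, 6.07 and 6.35 in controls. At an unadjusted p under 0.05 there were 3 higher genes of 31 and 0 lower, where 3.66% of all genes were higher. The higher genes numbered 9 without treated replicate 1, 0 without treated replicate 2 and 0 without control 1. Leaving out control 3 gave 6 and leaving out control 5 gave 1.

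**Figure D4:**
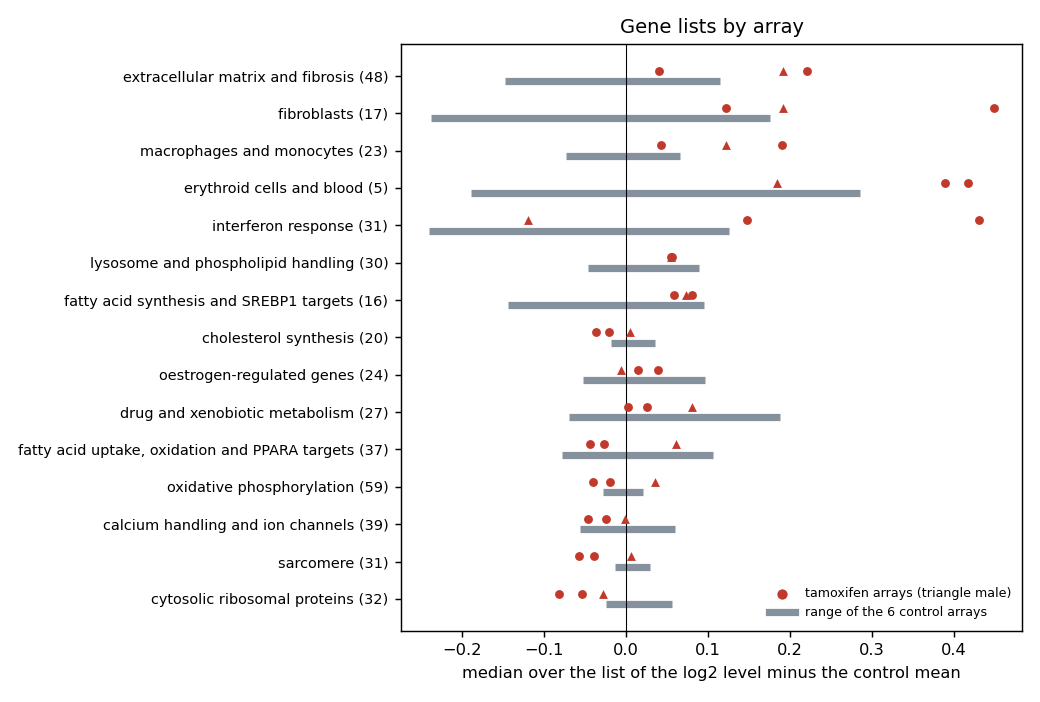
Median over each gene list (number of tested genes in brackets) of the log2 level minus the control mean; red points are the 3 tamoxifen arrays (triangle, male) and dark bars span the 6 control arrays. Matrix, fibroblast, macrophage, interferon and blood lists have 2 treated arrays above the control range, and the ribosomal protein list has all 3 below it. Lists for metabolism, calcium handling and cholesterol synthesis stay close to 0.

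The study's design sets the wild-type response beside that of MerCreMer hearts given the same 4 injections. The median size of the change, regardless of sign, was 0.056 log2 units in wild-type hearts and 0.176 in MerCreMer hearts. After 1 injection in MerCreMer hearts it was 0.068. Both MerCreMer values set 3 arrays against 3 and the wild-type value 3 against 6, so that their precision differs. In MerCreMer hearts after 4 injections, 2654 of the same genes (23.3%) passed an adjusted p of 0.05, whereas wild-type hearts gave 0 in the same 21-array fit. After 1 injection, MerCreMer hearts gave 1 called gene (0.00878%), and 7.19% of genes were at an unadjusted p under 0.05. The difference of the 2 effects was tested directly, as an interaction in limma on all 21 arrays. It passed an adjusted p of 0.05 for 909 genes, 7.98% of those tested. For 402 genes the wild-type change was the greater one and for 507 the smaller one, counting sign. The MerCreMer treated group had a residual variance of 0.106, against 0.0153 in treated wild-type hearts, and its replicate 3, labelled female, was low both in Xist (3.12) and in the Y-linked Eif2s3y (1.93), a pattern of neither sex in the wild-type arrays. Without that array the count was 924. With the variance of each group as weights the count was 585. Among MerCreMer arrays of the groups compared, it was 504 without control 1, 543 without control 3, 1714 without treated replicate 1 and 2242 without treated replicate 2. It was 556, 582 and 512 without wild-type treated replicates 1, 2 and 3. It was lower with the replicate block, where wild-type control 1 alone sets the control level of that genotype.

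Genes of excitation and contraction were among those that differed. Cacna1c lay at 9.40, 9.59 and 9.45 in treated wild-type hearts against 9.35 to 9.59 in wild-type controls, and at 7.11 to 7.52 in treated MerCreMer hearts against 9.47 to 9.62 in MerCreMer controls. The wild-type change exceeded the MerCreMer change by 2.26 (limma adjusted p = 3.52e-09). For Ryr2 the difference was 1.37 (limma adjusted p = 0.00456), for Slc8a1 1.55 (limma adjusted p = 0.000638) and for Kcnd2, a potassium channel, 1.87 (limma adjusted p = 0.00958). Hmox1 lay at 6.19, 5.86 and 5.66 in treated wild-type hearts, within reach of their controls, and at 8.43 to 8.50 in treated MerCreMer hearts, with a difference of -2.33 (limma adjusted p = 1.37e-05).

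For Cyfip2 the estimated changes had opposite signs in the 2 genotypes. In MerCreMer hearts it lay at 8.47 to 8.70 after 1 tamoxifen injection against 9.25 to 9.46 after 1 control injection, and at 7.94 to 8.67 after 4 tamoxifen injections against 8.72 to 9.48 in controls. The difference between the wild-type and the MerCreMer effect of 4 injections was 1.59 (limma adjusted p = 0.000322). Whether these Cyfip2 levels followed the drug or other differences between the animals was not tested. Fxyd6 differed by 0.65 (limma adjusted p = 0.00492) and Hmcn1, by its main probe set, by 1.37 (limma adjusted p = 6.27e-05). Esr1 differed by 0.91 (limma adjusted p = 0.0158), but in MerCreMer hearts its own RNA and the transgene's cannot be told apart. These 4 genes were named for their wild-type change, which is part of the difference, so that their tests of difference are not independent of that choice.

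**Figure D5:**
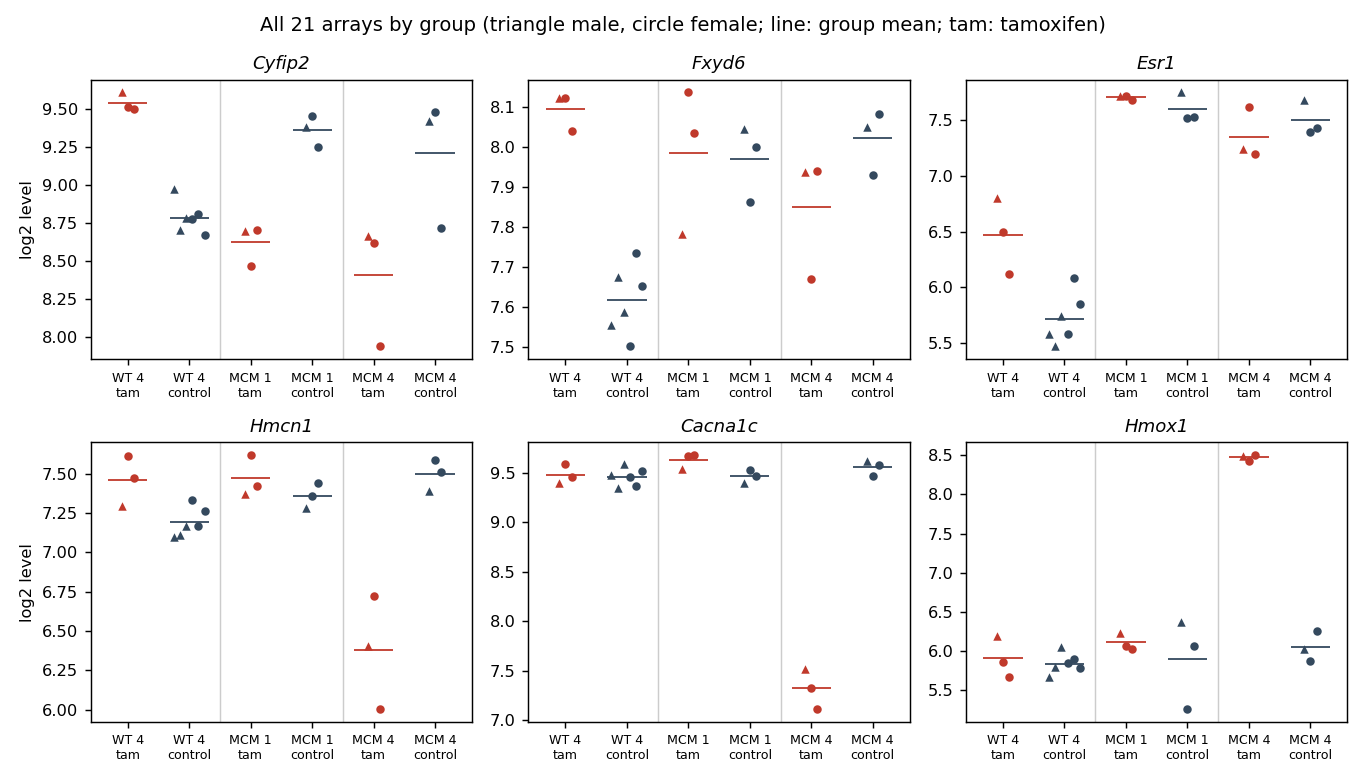
Log2 level of 6 genes on all 21 arrays, with tamoxifen (red) left of its control (dark) in wild-type hearts after 4 injections (WT 4) and in MerCreMer hearts after 1 (MCM 1) and 4 (MCM 4) injections; lines are group means. Cyfip2 is higher after tamoxifen in wild-type and lower in MerCreMer hearts, while Cacna1c and Hmox1 lie near their controls in wild-type hearts and far from them in the MerCreMer group given 4 tamoxifen injections.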

How the data were processed

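The authors deposited log2 values summarised with RMA, as the submitters' processing notes state, and these were used unchanged. The software version is not given in the sources used here. Of 34760 probe sets, 21640 had 1 gene, 1321 several and 11799 none in the platform annotation. Each of 19937 genes was represented by its brightest probe set on average, and 11384 genes with a log2 value of 5 on at least 3 arrays were tested.

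Groups and sex came from the labels. With limma 3.58.1 in R 4.3.3, group means and sex were fitted to 18 arrays, all but the 3 of MerCreMer mice given 4 tamoxifen injections (12 residual and 4.35 prior degrees of freedom). Those 3 were left out because earlier results showed their wide spread. Differences between genotypes and MerCreMer changes after 4 injections used all 21 arrays (14 and 3.98). Benjamini-Hochberg adjustment ran over all genes tested. The number of arrays limits the precision.

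The lists, named genes and tests were chosen with earlier results of these data known. Named genes were the 12 higher and 12 lower genes with the smallest p, the smallest-p member of each of 47 lists and a fixed panel. Some genes are not reported here. The fit was tested on simulated data. Replicate numbers did not pair the samples, with correlations of same-numbered deviations of 0.052, -0.084 and -0.068. Alternatives covered the arrays fitted, weights, sex, normalisation, filter, probe sets, prior, a replicate block and leaving out each array. In the replicate block, controls 4 to 6 have numbers that no other group has. Controls 2 and 3, male where other groups' replicates 2 and 3 are female, fix the sex term. Control 1 alone then sets the wild-type control level. The mean of a gene's probe sets was added after the data were seen.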

Additional observations from a re-analysis of the deposited data

Results flagged for a closer look

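On single control arrays, 8 of 87 named genes had a value far from the other controls, where chance flags about 5% of groups. Control 3, a male, was highest for the metallothioneins Mt1 at 10.45 (others 9.69 to 9.92) and Mt2 at 8.96 (others 6.40 to 7.27), and lowest for the clock output gene Dbp at 8.15 (others 9.05 to 9.17). Control 1 was highest for Mrpl20 at 7.53 (others 6.60 to 6.94) and lowest for Bicc1 at 7.29 (others 7.48 to 7.55) and Pgk1 at 10.47 (others 10.58 to 10.62). Control 2 was lowest for Abtb2 at 6.95 (others 7.19 to 7.29) and highest for Angptl4 at 6.30 (others 4.87 to 5.26).

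The tamoxifen effect differed between wild-type and MerCreMer hearts, by the limma interaction after 4 injections, for 909 genes in all (7.98% of those tested) and for 24 of the named ones. Genes named for a small wild-type p were chosen on a part of this difference, so that their tests are not independent of that choice. For Esr1, the transgene's RNA and the gene's own RNA cannot be told apart in MerCreMer hearts. Beside Cyfip2 (1.59), Fxyd6 (0.65), Esr1 (0.91), Hmcn1 (1.37), Cacna1c (2.26), Ryr2 (1.37), Slc8a1 (1.55) and Kcnd2 (1.87), a greater wild-type change was measured for the clearance receptor Npr3 (1.12), Lyrm7 (0.60), the fatty acid transporter Cd36 (0.78), Pln (0.76), Dbp (1.40), Cited2 (0.68) and the endothelial sialomucin Emcn (0.66). A smaller wild-type change was measured for Hmox1 (-2.33), the neutrophil and acute phase protein Lcn2 (-2.23), the stress gene Gadd45g (-1.93), the keratin Krt18 (-1.90), Cd68 (-1.36), Stat3 (-0.59), the proteasome subunit Psmb4 (-0.53), Tnip1 (-0.47) and Drap1 (-0.33).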

How the results depend on the processing

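The count of called wild-type genes, 0, was also 0 with all 21 arrays, without sex and after a second quantile normalisation. It stayed at 0 with centred arrays, without a filter and with the mean of a gene's probe sets. It was 2 with the 9 wild-type arrays alone, 2 with array weights, 2 with the stricter filter and 2 with a trended prior. It was 3 with group variances as weights and 6 with female arrays only (Mrpl20, Pttg1, Abtb2, Akr1e1, Lgr6 and Mgst1). With every probe set tested, 11 probe sets were called, of which 8 were of Hmcn1. Leaving out 1 array at a time gave 0 to 1 (Esr1 without control 5, Pttg1 without treated replicate 1). At an unadjusted p under 0.05 the count of 688 was 295 with all 21 arrays, 1379 with array weights and 1057 without control 3. Its split of 417 higher and 271 lower was 398 and 355 after quantile normalisation and 354 and 347 with centred arrays. The 909 genes whose effect differed between genotypes became 585 with group variances as weights, 27 with the replicate block and 504 to 2242 without 1 array.

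None of 523 alternative values of the 24 genes named by p turned sign. Their choice by p on the same arrays largely fixes that, so the count is a description. Of 1920 values of all named genes, 26 turned sign, none called. With the replicate block these were Cd36 (-0.00513), Pdk4 (-0.385), Ucp3 (-0.196), Nppb (0.846), Cacna1c (-0.0360), Per1 (-0.145), Dbp (-0.115), Ndufc1 (-0.0264) and Fosl2 (0.00747). With female arrays only they were Nppa (-0.152), Hmox1 (-0.0773) and Gfra3 (-0.0268), and for Ryr2 -0.00553 after quantile normalisation and -0.00754 with centred arrays. Leaving out 1 array gave ranges across 0 for Ryr2 (-0.0159 to 0.0233), Atp2a2 (-0.0279 to 7.92e-05), Pln (-0.0412 to 0.00323), Cacna1c (-0.0322 to 0.0555), Angptl4 (-0.0334 to 0.317), Arntl (-0.0016 to 0.359) and Kit (-0.0843 to 0.00615). With the replicate block, control 1 alone set the wild-type control level, so those values rest on 1 control. For the other sign changes the cause was not tested. Array number and signal near background limit the low-level genes most.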

Other observations

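Some further gene groups belong in no comparison above. Of 18 endothelial markers, 2 were higher at an unadjusted p under 0.05, where 3.66% of all genes were, and the list's median change was 0.041. One was Emcn, an endothelial sialomucin, at 8.51, 8.52 and 8.44 after tamoxifen against 8.04, 8.18 and 8.38 as the lowest, median and highest control, a change of 0.28 (limma adjusted p = 0.477). The other was Mmrn2, an endothelial matrix protein, with a change of 0.11. The count was 1 without treated replicate 1 or 2, 1 without control 1, 4, 5 or 6, and 4 without control 3. Of 13 cell cycle genes above the filter, 2 were higher at that level, against the same 3.66% of all genes. The 2 became 1 without treated replicate 3 or control 1, 2 or 4, and 0 with all 21 arrays in the fit. Mki67, the proliferation marker Ki-67, lay at 4.48 and 4.40 in the treated females and was higher still in the treated male, against 3.92, 4.17 and 4.36 as the lowest, median and highest control. These levels are near or under the filter value of 5.

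Of 30 stress genes of the endoplasmic reticulum, 17 had a higher and 13 a lower mean, with a median change of 0.007. At an unadjusted p under 0.05, Ddit3 was lower, and Xbp1, a transcription factor of the unfolded protein response, and Dnajb9, a chaperone of the same compartment, were higher by 0.20 and 0.22. Of all genes, 3.66% were higher and 2.38% lower at that level. The 2 higher genes became 1 without treated replicate 2 or 3 or control 2 or 4. The count was 4 without treated replicate 1 and 5 without control 3. The small heat shock protein Hspb8 lay at 10.61, 10.56 and 10.56 after tamoxifen against 10.68, 10.75 and 10.88 in controls, below every control.

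Among the genes called with female arrays only, 3 are given here, chosen after their values were seen. Pttg1, which encodes securin, lay at 8.64 and 8.54 in the 2 treated females and 7.79 in the treated male. Controls of both sexes lay at 7.67 to 7.80. Mgst1, a membrane glutathione transferase, lay at 6.35, 5.84 and 5.97 after tamoxifen against 6.36 to 7.52 in controls. Akr1e1, an aldo-keto reductase, lay at 5.57, 5.57 and 5.37 after tamoxifen against 5.12 to 7.17 in controls, with overlapping groups. With 1 treated male, whether the effect differs by sex was not tested.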
